A study of Oryctolagus cuniculus with 24 samples.

Results

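The corneal stroma is formed by cells of the neural crest that migrate around the developing eye, and a small group of transcription factors marks that lineage and persists in the adult cornea. Described here are 8 genes listed as identity factors of the corneal stroma. They include the paired-type homeodomain factor PITX1, the forkhead factors FOXC1 and FOXC2 and the AP-2 factors TFAP2A and TFAP2B. The others are the homeodomain factor SIX2, the LIM homeodomain factor LMX1B and the coactivator EYA2. All 8 were looked up by gene name in the table. Of the 8, 6 are rows of the gene count table (23428 genes), and PITX1 and FOXC2 were not analysed here. SIX2 fell under the filter on low counts, which left 5 genes among the 13308 tested.

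RNA was sequenced from primary rabbit (Oryctolagus cuniculus) corneal keratocytes at passage 1, kept for 6 days on glass coated with collagen. In the serum-free group (8 libraries) the cells stayed in serum-free medium throughout. In the TGF-β1 group (8 libraries), the myofibroblast condition, that medium held 5 ng/mL of the growth factor TGF-β1 from day 1. In the FBS group (8 libraries), the fibroblast condition, cells were moved on day 3 to DMEM with 10% fetal bovine serum (FBS). Serum is thus not the sole change in the FBS arm, whose base medium and time of treatment differ too. The labels give no strain, sex or age, and do not say whether separate animals or cultures gave the replicates, so p-values reflect the spread between these samples alone, and that may be technical.

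The libraries held 15410285 to 22528261 counts. Levels are given as CPM (counts relative to library size, with the size set by the TMM method on the bulk of genes) and differences as log2 fold changes. Libraries carry the numbers 5 to 12 in each condition, and for several of these genes numbers 5 to 8 (replicates 1 to 4) stood apart from numbers 9 to 12 (replicates 5 to 8). What the numbers stand for is not in the labels, so values within each set of numbers are given beside the pooled ones. Of the 10 keratocyte markers listed, 8 are in the table and all 8 were above 1 CPM in each condition. Their summed level was 61691 to 98442 CPM in serum-free medium, 14877 to 25179 CPM with TGF-β1 and 2107 to 4416 CPM with FBS. In serum-free medium the sum rested mostly on OGN, DCN, LUM and KERA. Against serum-free medium 7 of the 8 were lower with TGF-β1 and all 8 with FBS. AQP1 was the 1 that rose with TGF-β1, from a mean of 584 to 1568 CPM. In bulk RNA, fewer cells of a type and less RNA per cell cannot be told apart.

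As background, AP-2 factors act early in the neural crest and are needed for facial and eye structures, and TFAP2B is also known from the corneal endothelium and the stroma. FOXC1 is a gene of Axenfeld-Rieger anterior segment disease, and LMX1B, the gene of nail-patella syndrome, is required for the mouse corneal stroma and its keratocan. EYA proteins bind no DNA themselves. They are phosphatases that work as coactivators of SIX-type homeodomain factors.

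Across the conditions, 3 of the 5 tested genes followed 1 order: TFAP2B, EYA2 and LMX1B were highest in serum-free medium, lower with TGF-β1 and lowest with FBS, and passed in all 3 comparisons (edgeR's quasi-likelihood test, adjusted p under 0.05). Over all genes, 12.6% followed that order by the same rule. For LMX1B the order rests on the pooled libraries. In library numbers 5 to 8 LMX1B did not fall with TGF-β1 (log2 0.03, edgeR adjusted p = 0.905). Its call between the treatments was lost with scaling by total counts only (edgeR adjusted p = 0.0546). FOXC1 rose with TGF-β1 and did not pass with FBS, and TFAP2A fell by the smallest amounts. Since the comparisons against serum-free medium share its libraries, each has its own values below.

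With TGF-β1, 1 of the 5 tested genes rose (FOXC1) and 4 fell against serum-free medium, where 64.3% of all genes passed, 31.2% higher and 33.1% lower. In 3 of the 5 the groups did not overlap, 1 higher and 2 lower, against 33.9% of all genes (17.3% higher and 16.5% lower). Their median log2 fold change was -0.49, with -0.03 over all genes. With FBS none rose and 4 fell, where 80.0% of all genes passed, 39.5% higher and 40.5% lower. In 3 of the 5, all lower, the groups did not overlap (25.7% of all genes were lower without overlap, and 52.9% either way), and the median was -1.23, with -0.04 over all genes. Between the treatments, 4 of the 5 were higher with TGF-β1 than with FBS (36.9% of all genes were higher, 36.4% lower and 73.3% either) and 3, all higher, did not overlap (22.4% of all genes were higher without overlap, and 46.2% either way). With most genes called in each comparison, these counts say little by themselves, and the sizes follow gene by gene.

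**Figure D1:**
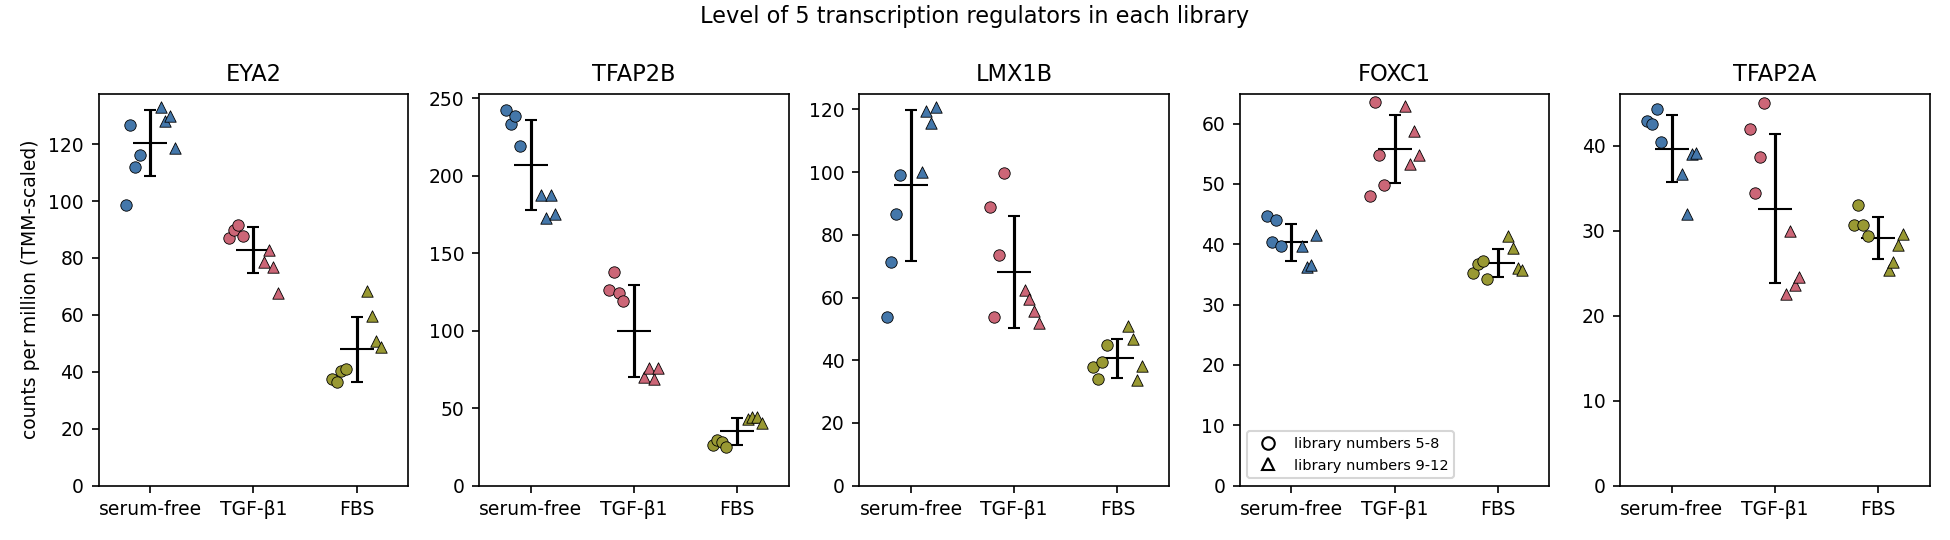
Level of each of the 5 tested genes (y axis, TMM-scaled CPM from 0, a scale of its own per gene) in the 24 libraries by condition (x axis). Circles are library numbers 5 to 8, triangles 9 to 12, and the bar gives mean ± SD of 8 libraries. TFAP2B steps down from 173 to 242 CPM in serum-free medium to 24.8 to 44.3 CPM with FBS, while FOXC1 is highest with TGF-β1.

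TFAP2B, the AP-2β factor (chromosome 12, 40149987 to 40179001, as the authors' table places it on an unstated build), changed most. Its lowest, median and highest values were 173, 203 and 242 CPM in the serum-free group. With TGF-β1 they were 68.6, 97.3 and 138 CPM. With FBS they were 24.8, 34.9 and 44.3 CPM. The 3 ranges did not touch: every serum-free library lay above every TGF-β1 library, and every TGF-β1 library above every FBS library. The mean went from 207 ± 29.2 CPM (SD, n = 8) to 99.7 ± 29.6 with TGF-β1, a log2 change of -1.05 (SE 0.16, edgeR adjusted p = 3.40e-06). With FBS the mean was 35.0 ± 8.65 CPM, 5.91-fold under serum-free medium (log2 -2.56, SE 0.17, edgeR adjusted p = 2.66e-13). The drop with FBS stood among the lower end of all changes, with 7.73% of genes falling further. TGF-β1 exceeded FBS 2.85-fold (log2 1.51, edgeR adjusted p = 7.15e-09).

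The libraries of TFAP2B split by number inside each condition. Numbers 5 to 8 read 219 to 242 CPM in serum-free cultures, 119 to 138 with TGF-β1 and 24.8 to 29.4 with FBS. Numbers 9 to 12 read 173 to 188, 68.6 to 75.7 and 40.3 to 44.3 CPM. The first set was thus the higher one in the serum-free and TGF-β1 groups and the lower one with FBS, with no overlap between the sets in any condition. The log2 fold change with FBS was -3.10 (SE 0.07) in numbers 5 to 8 and -2.07 (SE 0.07) in numbers 9 to 12. With TGF-β1 it was -0.88 and -1.32 in the same order. The set-by-condition term, which tests whether the change differed between the sets, passed for TFAP2B in all 3 comparisons (edgeR adjusted p = 0.00245 for TGF-β1, 1.13e-08 for FBS and 1.09e-10 between the treatments), as it did in 10.3%, 22.4% and 23.9% of all genes. The direction was the same in both sets throughout.

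EYA2, the transcriptional coactivator and phosphatase (unplaced scaffold Un0027, 1639690 to 1851019), fell with both treatments. Its lowest, median and highest values were 98.4, 123 and 133 CPM in serum-free medium. They were 67.5, 85 and 91.7 CPM with TGF-β1, all below the serum-free libraries. They were 36.6, 44.9 and 68.4 CPM with FBS, where the highest library (replicate 5) passed the lowest with TGF-β1 (replicate 8), so these groups overlapped. The mean of 120.4 ± 11.5 CPM (SD, n = 8) compares with 82.8 ± 8.09 with TGF-β1, a log2 change of -0.54 (SE 0.11, edgeR adjusted p = 0.00012). FBS gave 47.9 ± 11.4 CPM, a log2 change of -1.33 (SE 0.11, edgeR adjusted p = 2.56e-11). TGF-β1 was 1.73-fold above FBS (edgeR adjusted p = 4.40e-07).

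Within the sets the EYA2 change with TGF-β1 was -0.34 in numbers 5 to 8 and -0.73 in numbers 9 to 12. With FBS it was -1.54 and -1.16. The set term passed for FBS against serum-free medium (0.38, edgeR adjusted p = 0.0349) and between the treatments (-0.77, adjusted p = 0.000111), and missed for TGF-β1 against serum-free medium (-0.39, adjusted p = 0.0519). FBS replicates 5 and 6, at 68.4 and 59.6 CPM, were the highest of their group. The set term for FBS was lost when both were left out together (0.19, adjusted p = 0.266), with scaling by total counts only (0.26), with no filter (0.37) and in 8 of the 24 fits that left out 1 library. The fall of EYA2 itself kept its call in every setting run.

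LMX1B, the LIM homeodomain factor (unplaced scaffold Un0001, 828305 to 839108), had the largest coefficient of variation of the 5 among serum-free libraries (25.1%). Its lowest, median and highest values were 53.7, 99.5 and 121 CPM in serum-free medium. They were 51.7, 61.0 and 99.8 CPM with TGF-β1 and 33.6, 38.7 and 50.9 CPM with FBS. TGF-β1 overlapped serum-free medium widely, whereas the FBS libraries lay below both other groups by a narrow margin. The mean of 95.8 ± 24.1 CPM (SD, n = 8) fell to 40.7 ± 6.23 with FBS, 2.35-fold (log2 -1.23, SE 0.16, edgeR adjusted p = 7.60e-08). TGF-β1 gave 68.2 ± 17.7 CPM, a log2 change of -0.49 (SE 0.16, edgeR adjusted p = 0.00786). Between the treatments LMX1B was higher with TGF-β1 by 0.74 (SE 0.16, edgeR adjusted p = 0.000142). That call was lost when libraries were scaled by total counts only (0.35, adjusted p = 0.0546).

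The fall of LMX1B with TGF-β1 was seen in 1 of the sets of libraries. In numbers 5 to 8 the serum-free libraries read 53.7 to 99.2 CPM and the TGF-β1 libraries 53.8 to 99.8, a log2 change of 0.03 (SE 0.18, edgeR adjusted p = 0.905). In numbers 9 to 12 they read 99.9 to 121 and 51.7 to 62.5 CPM, with no overlap, a log2 change of -0.99 (SE 0.12, edgeR adjusted p = 3.36e-06). The set-by-condition term passed (-1.01, SE 0.23, adjusted p = 0.00451). With FBS the gene fell in both sets, by 0.98 and 1.42 on the log2 scale, and the set term missed (adjusted p = 0.186).

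FOXC1, the forkhead factor (unplaced scaffold Un0017, 3921583 to 3923481, a gene model of 1 unbroken block of 1899 bases), was the gene that rose. Its lowest, median and highest values were 36.2, 40.0 and 44.7 CPM in serum-free cultures. With TGF-β1 they were 47.9, 54.8 and 63.5 CPM, above every serum-free and every FBS library. With FBS they were 34.2, 36.3 and 41.3 CPM, which overlapped serum-free medium. The mean rose from 40.4 ± 3.07 to 55.7 ± 5.65 CPM (SD, n = 8) with TGF-β1, 1.38-fold (log2 0.46, SE 0.07, edgeR adjusted p = 1.81e-06). The change was 0.36 in numbers 5 to 8 and 0.58 in numbers 9 to 12, both past the threshold. Against FBS, at 37.0 ± 2.33 CPM, TGF-β1 was higher by 0.59 (SE 0.07, edgeR adjusted p = 2.01e-08), and by 0.59 in each set.

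FBS against serum-free medium did not pass for FOXC1 (log2 -0.13, 95% interval -0.27 to 0.01, edgeR adjusted p = 0.0917), and the sign turned to 0.13 when libraries were scaled by total counts only (adjusted p = 0.0765). It passed in numbers 5 to 8 alone (-0.23, adjusted p = 0.0191) and with FBS replicates 5 and 6 left out together (-0.16, adjusted p = 0.0438). FOXC1 varied little among libraries, with a coefficient of variation of 7.60% in serum-free medium, 10.1% under TGF-β1 and 6.30% under FBS. For LMX1B these were 25.1%, 26% and 15.3%.

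**Figure D2:**
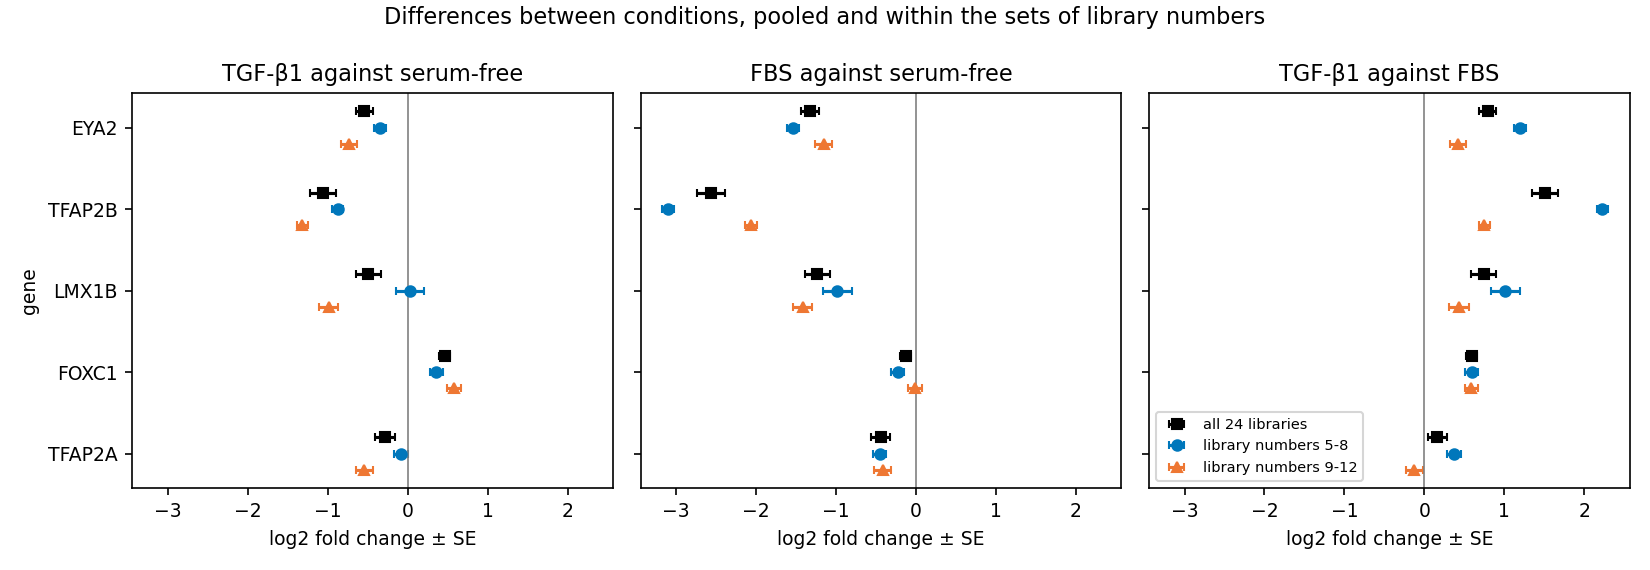
Log2 fold change (x axis, ± SE) of each tested gene (y axis) in the 3 comparisons, fitted over all 24 libraries (squares), library numbers 5 to 8 (circles) and 9 to 12 (triangles). LMX1B with TGF-β1 sits at 0.03 in one set and -0.99 in the other, while FOXC1 is above 0 with TGF-β1 in both.

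TFAP2A, the AP-2α factor (chromosome 12, 4121619 to 4143883), changed least among the genes that fell. Its lowest, median and highest values were 32, 39.8 and 44.3 CPM in serum-free medium. They were 22.5, 32.2 and 45 CPM with TGF-β1 and 25.3, 29.5 and 33.0 CPM with FBS. The groups overlapped in all 3 comparisons. FBS lowered the mean from 39.6 ± 3.95 to 29.1 ± 2.47 CPM (SD, n = 8), a log2 change of -0.44 (SE 0.12, edgeR adjusted p = 0.0018), with -0.46 and -0.41 in the sets. Scaled by total counts only, that call was lost (-0.18, adjusted p = 0.157).

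With TGF-β1 the mean of TFAP2A was 32.6 ± 8.75 CPM, and its call was marginal (log2 -0.28, SE 0.12, edgeR adjusted p = 0.0463). It was lost in 18 of the 24 fits that left out 1 library (lowest and highest log2 fold change -0.36 and -0.22), with DESeq2 (adjusted p = 0.0504), with no filter (0.0856) and with only the 16 libraries compared (0.0627). With the replicate number as a block it held (edgeR adjusted p = 0.00694). The TGF-β1 libraries of numbers 5 to 8 read 34.5 to 45 CPM and those of 9 to 12 read 22.5 to 30 CPM, without overlap. Accordingly the change was -0.09 (adjusted p = 0.384) in the first set and -0.54 (adjusted p = 0.000458) in the second, and the set term passed (-0.46, edgeR adjusted p = 0.0279), though not in 8 of the 24 fits that left out 1 library, nor on FPKM values. TGF-β1 against FBS did not pass (0.16, 95% interval -0.09 to 0.41, edgeR adjusted p = 0.237), with 0.37 in numbers 5 to 8, where it passed, and -0.13 in numbers 9 to 12. Its sign also turned with scaling by total counts only (-0.24).

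The AP-2 genes could be compared within each library, since their gene models have close lengths (6005 bases for TFAP2B and 6129 for TFAP2A), and their ratio does not depend on how libraries are scaled. Per base of gene model, TFAP2B exceeded TFAP2A 5.32 ± 0.399 times (SD, n = 8) in serum-free medium, with libraries from 4.58 to 5.77. With TGF-β1 the ratio was 3.12 ± 0.456, from 2.57 to 4.08. With FBS it was 1.25 ± 0.395, from 0.862 to 1.73. The 3 ranges did not overlap. The ratio was 1.72-fold lower with TGF-β1 and 4.44-fold lower with FBS than in serum-free medium, and 2.59-fold higher with TGF-β1 than with FBS. In each of these 3 comparisons the exact two-sided permutation test over 8 against 8 libraries gave p = 0.000155, the smallest it can give, and the same after adjustment over the 3. Ranges that do not overlap always give that smallest value, so the test adds nothing to the ranges.

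All 4 FBS libraries of numbers 5 to 8 had a ratio below 1 (0.862 to 0.934), so TFAP2A was there the more abundant AP-2 transcript per base. All 4 of numbers 9 to 12 stayed above 1 (1.39 to 1.73). In serum-free medium the sets read 5.59 ± 0.122 and 5.05 ± 0.401 (SD, n = 4). The step down with TGF-β1 was alike in size, 1.72-fold and 1.71-fold within the sets. The step with FBS was 6.26-fold and 3.15-fold. With 4 against 4 libraries the exact permutation test cannot go below p = 0.0286, which each of these reached.

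**Figure D3:**
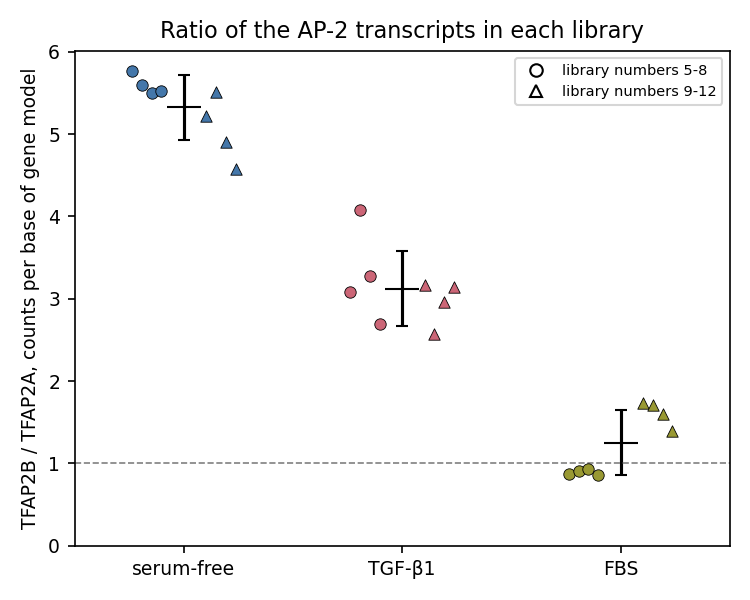
Ratio of TFAP2B to TFAP2A counts per base of gene model (y axis, from 0) in each library by condition (x axis), with circles for library numbers 5 to 8, triangles for 9 to 12 and mean ± SD of 8 libraries. The dashed line marks equal levels. The 4 FBS libraries below it are those of numbers 5 to 8.

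Per gene length, in the deposited FPKM values (counts divided by gene length and library size), EYA2 had the highest mean of the 5 over the 8 libraries of each condition and TFAP2A the lowest, but parts of the order differed between the sets of library numbers. The order, and the ranks and shares below, depend on gene models of 1899 (FOXC1) to 6129 bases (TFAP2A), with 2290 for EYA2. Whether these models are complete was not tested. In CPM, TFAP2B (207) was above EYA2 (120) in serum-free medium. In serum-free medium the order was EYA2 at 52.5 ± 4.74 FPKM (SD, n = 8), TFAP2B at 34.5 ± 5.17, LMX1B at 23.7 ± 5.77, FOXC1 at 21.2 ± 1.77 and TFAP2A at 6.46 ± 0.686. LMX1B and FOXC1 did not differ beyond their spread there, and LMX1B had the lower mean in numbers 5 to 8 (19.4 against 22.4 FPKM) and the higher in numbers 9 to 12 (27.9 against 20.1). With TGF-β1 FOXC1 stood next to EYA2, at 29.4 ± 2.94 against 36.1 ± 3.38 FPKM, and LMX1B (16.9 ± 4.38) and TFAP2B (16.6 ± 4.84) did not differ beyond their spread. With FBS the order was EYA2 at 20.8 ± 4.80, FOXC1 at 19.4 ± 1.08, LMX1B at 10.0 ± 1.47, TFAP2B at 5.81 ± 1.42 and TFAP2A at 4.74 ± 0.426 FPKM. EYA2 and FOXC1 overlapped there, as did TFAP2B and TFAP2A. In FBS numbers 5 to 8 every FOXC1 value (18.1 to 19.6 FPKM) lay above every EYA2 value (16 to 18.0), and TFAP2B had the lowest mean (4.52 against 5.04 for TFAP2A). In FBS numbers 9 to 12 the means of EYA2 (24.7 FPKM) and TFAP2B (7.11) were above those of FOXC1 (19.9) and TFAP2A (4.44).

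Among the 13308 genes tested, ranked by mean FPKM, EYA2 stood above 91.6% in serum-free cultures, 84.9% with TGF-β1 and 73.5% with FBS. TFAP2B stood above 86.3%, 69.2% and 44.1%. FOXC1 kept its place better, above 76.6%, 81.4% and 72.0%. The summed level of the 5 was 138 ± 4.36, 104 ± 10.9 and 60.8 ± 7.46 FPKM in the 3 conditions (SD, n = 8). TFAP2B made up 25% ± 4.07 of that sum in serum-free medium and 9.48% ± 1.59 with FBS. FOXC1 made up 15.4% ± 1.59 in serum-free cultures, 28.5% ± 4.66 with TGF-β1 and 32.1% ± 2.57 with FBS.

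**Figure D4:**
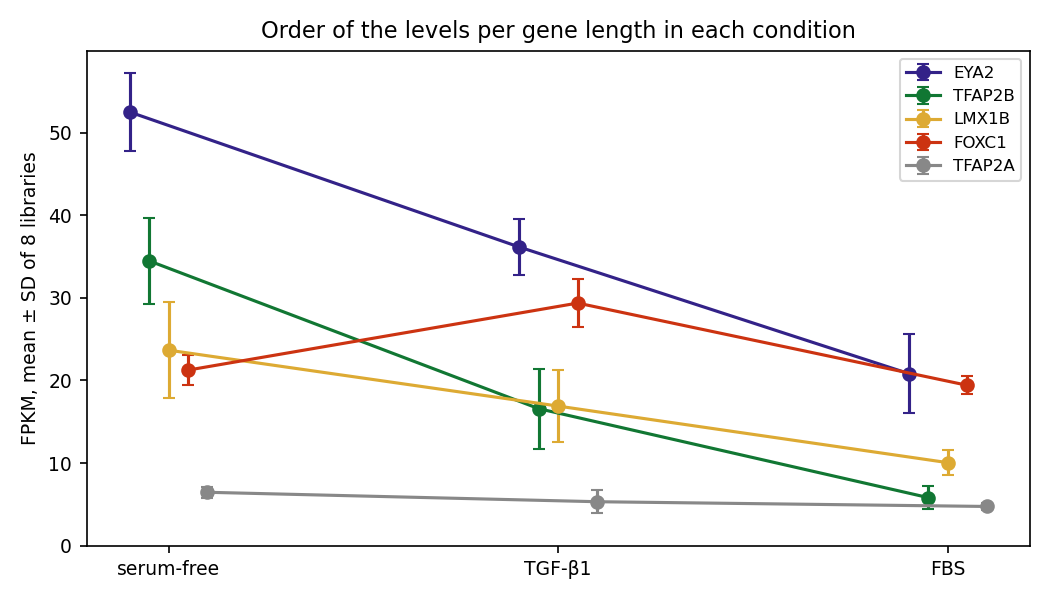
Level per gene length (y axis, FPKM, mean ± SD of 8 libraries) of the 5 tested genes in each condition (x axis). Lines join the means of 1 gene. These means pool both sets of library numbers, between which the order with FBS differed. EYA2 has the highest and TFAP2A the lowest pooled mean in each condition, and TFAP2B drops from the next highest place in serum-free medium to 5.81 FPKM with FBS.

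SIX2, a homeodomain factor best known from kidney progenitors and the developing face (chromosome 2, 141186560 to 141190291), was barely detected. It had 6 counts over the 8 serum-free libraries (exact Poisson 95% interval 2.20 to 13.1, counting error only), with 6 libraries at 0 and none above 3. With TGF-β1 it had 18 counts (10.7 to 28.4), at most 6 in a library. With FBS it had 16 counts (9.15 to 26), at most 5. These are levels of 0.0403, 0.144 and 0.0912 CPM. In a fit with no filter on low counts SIX2 passed in none of the comparisons (edgeR adjusted p = 0.0978 for TGF-β1 against serum-free medium, 0.278 for FBS and 0.504 between the treatments). On log2(FPKM + 0.1) values limma gave an adjusted p of 0.0394 for TGF-β1 against serum-free medium, with a difference of 0.57 on that scale. A difference in SIX2 could not be settled at this depth.

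Markers of the other cells that express these factors were looked at beside them. Corneal epithelium, which is known for TFAP2A, was at 0.618 to 2.14 CPM in serum-free cultures, 0.840 to 3.00 with TGF-β1 and 4.2 to 6.06 with FBS, summed over 10 of 11 markers in the table. KRT12, the keratin of corneal epithelium, had 0 counts in each condition, and TP63, with a mean of 4.49 CPM with FBS, made up most of the sum there. Corneal endothelium, which is known for TFAP2B, had 9 of 10 markers with counts and ZP4 at 0. Their sum was 2030 to 2423 CPM in serum-free cultures, 5633 to 9203 with TGF-β1 and 954 to 1182 with FBS, and it rested mostly on the collagen genes COL8A1 and COL8A2, which stromal cells can also express. Of the 8 endothelial markers tested, 3 rose and 4 fell in each treatment against serum-free medium. The transporter gene SLC4A11 averaged 1.5 CPM in serum-free medium, 0.823 under TGF-β1 and 6.93 under FBS, while SLC4A4, another transporter gene, averaged 397, 89.6 and 40.1 CPM and TMEM178A 53.9, 60.3 and 1.85 CPM in the same order. In the serum-free, TGF-β1 and FBS groups in turn, glial and melanocyte markers, of neural crest origin, summed to 43.2 to 63.4, 39.8 to 78.8 and 12.8 to 22.1 CPM, with TYR at 0 in serum-free medium and with FBS. Of the 6 markers of skeletal muscle, where EYA genes also act, MYOD1, MYF5 and MYOG were at 0 in each condition. Vascular endothelial markers, mostly KDR, summed to 246 to 368, 52.1 to 113 and 13.8 to 19.0 CPM in the same order. Fibroblast and myofibroblast markers summed to 6252 to 9565, 21071 to 34566 and 8201 to 9844 CPM, a sum that rested mostly on FN1 (means of 5289, 21157 and 909 CPM) and VIM (2219, 3554 and 7217 CPM). ACTA2, the smooth muscle actin that marks myofibroblasts, averaged 2.92, 231 and 479 CPM. Its highest mean was thus in the FBS group, labelled as the fibroblast condition. The ACTA2 values with TGF-β1 (115 to 403 CPM) and FBS (247 to 722 CPM) overlapped. TAGLN (means of 3.40, 411 and 258 CPM) and POSTN (24.8, 2460 and 50.1 CPM) were highest with TGF-β1, as FN1 was. THY1 (41.6, 21.2 and 11.7 CPM) was highest in serum-free medium. Immune markers summed to 2.47 to 5.17, 6.22 to 9.79 and 12.2 to 27.0 CPM, mostly CD68. The part of other cell types in the changes of the 5 genes was not tested.

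List genes named below passed the edgeR test unless an adjusted p is given, and values in brackets are log2 fold changes with TGF-β1 and with FBS against serum-free medium. Closest relatives and partners of the 8 factors, a list of 23 genes, had 22 in the table and 11 tested. With TGF-β1, 4 rose and 6 fell (median log2 fold change -0.47, with -0.03 over all genes), and with FBS 5 rose and 5 fell (median 0.44, with -0.04). EYA1, the paralogue of EYA2, fell from 11.4 ± 2.34 CPM (SD, n = 8) to 1.68 ± 0.653 and 0.491 ± 0.289 CPM (-2.74 and -4.53). EYA3 went the other way, from 36.0 ± 4.74 to 48.0 ± 3.43 and 90.2 ± 17.3 CPM (0.42 and 1.33). The EYA genes therefore moved apart, with EYA1 and EYA2 lower and EYA3 higher in both treatments.

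SIX4, a homeodomain factor related to SIX2, was 8.29 ± 1.88 CPM in serum-free cultures, 6.5 ± 1.04 with TGF-β1 (-0.35, edgeR adjusted p = 0.0253) and 12 ± 1.89 with FBS (0.53). The call with TGF-β1 was lost in library numbers 9 to 12 alone (-0.04), on FPKM values, and without serum-free replicate 1, TGF-β1 replicate 3 or TGF-β1 replicate 4. The call with FBS was lost in numbers 5 to 8 alone (0.26). LDB1 and LDB2 encode the cofactors that LIM homeodomain factors such as LMX1B bind. LDB2 fell from 46.4 ± 12.1 to 2.85 ± 0.699 CPM with TGF-β1 and 1.33 ± 0.480 with FBS (-4.02 and -5.12), and LDB1 fell from 88.2 ± 16.3 to 59.9 ± 6.91 and 60.6 ± 4.99 CPM (-0.56 and -0.54). LMX1A, the paralogue of LMX1B, rose from 0.168 ± 0.162 to 1.13 ± 0.392 and 1.21 ± 0.316 CPM (2.67 and 2.76). It had only 0 to 9 counts in a serum-free library, so its fitted folds are uncertain in size. With TGF-β1 the fold was 2.08 in library numbers 5 to 8 and 3.88 in numbers 9 to 12. CITED2, a coactivator of AP-2 factors, rose from 18.2 ± 2.14 to 51.7 ± 9.26 and 40.9 ± 9.61 CPM (1.51 and 1.17).

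Other transcription factors of the neural crest, a list of 34 genes, had 31 in the table and 15 tested. With TGF-β1, 10 rose and 3 fell (median 1.46), and with FBS 12 rose and 1 fell (median 1.83). The median over the 15 tested genes was positive in both treatments, and that of the 5 identity factors negative. This contrast describes the chosen genes and tests nothing, since the lists were drawn up with earlier results known. The 16 genes under the filter are not in the median. Genes near 0 in serum-free medium, such as ID2, passed the filter through the treated groups. SOX9, the SRY-related factor of crest and cartilage, rose from 11.8 ± 2.69 to 116 ± 15.8 CPM with TGF-β1 (3.30) and 27.1 ± 7.57 with FBS (1.20). ETS1, an ETS-domain factor of the cranial and cardiac crest, rose from 1.61 ± 0.778 to 20.8 ± 2.43 and 15.2 ± 3.10 CPM (3.69 and 3.23). The inhibitors of helix-loop-helix factors ID1 (1.30 and 4.35), ID2 (4.29 and 7.97) and ID3 (4.44 and 5.95) rose with both treatments. ID2 had only 0 to 17 counts in a serum-free library, so its fitted folds are uncertain in size. Its levels were 0.318 ± 0.301, 6.35 ± 2.05 and 80.8 ± 30.7 CPM in the serum-free, TGF-β1 and FBS groups. SOX10, kept by glial and melanocyte descendants of the crest, fell from 4.11 ± 1.11 to 0.970 ± 0.486 and 0.546 ± 0.280 CPM (-2.09 and -2.88). NR2F1, an orphan nuclear receptor, fell with TGF-β1 (-1.01) and rose with FBS (0.77). PRRX1, a homeodomain factor of mesenchyme, was 158 ± 27.2, 152 ± 20.8 and 164 ± 32.6 CPM and did not pass in either comparison (-0.05 and 0.06, edgeR adjusted p = 0.741 and 0.655). Scaled by total counts only, PRRX1 passed with FBS (0.33).

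Periocular and anterior segment factors, a list of 33 genes, had 28 in the table and 12 tested. With TGF-β1, 2 rose and 5 fell (median -0.27, and -0.51 with TCF21, which had 0 counts in serum-free medium, set to a floor of 3 counts over the group). With FBS 3 rose and 6 fell (median -0.24 either way). TBX2, a T-box repressor, fell from 312 ± 48.3 to 91.1 ± 19.2 CPM with TGF-β1 (-1.78) and 75.2 ± 11.8 with FBS (-2.05). FOXP1, a forkhead factor, rose in both (0.88 and 0.49), and ZEB1, a zinc finger repressor of epithelial genes, fell in both (-0.54 and -1.19). TBX15, another T-box factor, was 0.933 ± 0.334 CPM in serum-free cultures and 0.671 ± 0.303 with TGF-β1 (-0.48, edgeR adjusted p = 0.215), and fell to 0.359 ± 0.161 with FBS (-1.38). TCF21, a helix-loop-helix factor of mesenchyme, had 0 counts in serum-free medium, at most 1 count in a TGF-β1 library and 1.91 ± 0.427 CPM with FBS, so no fitted fold is given. The call of ZEB1 with TGF-β1 was lost in library numbers 9 to 12 alone (-0.43, adjusted p = 0.0831).

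Genes reported elsewhere as targets of these factors formed a list of 11, with 10 in the table and 8 tested. With TGF-β1, 2 rose and 5 fell (median -1.23), and with FBS none rose and 7 fell (median -3.98). KERA, the keratocan gene that depends on LMX1B in the mouse, went from 8807 ± 1328 CPM in serum-free medium to 293 ± 46.2 with TGF-β1 (-4.91) and 237 ± 113 with FBS (-5.21). COL4A3 and COL4A4, basement membrane collagens that LMX1B controls in the kidney, fell together. COL4A3 went from 1364 ± 287 to 149 ± 43.9 and 22.1 ± 8.01 CPM (-3.19 and -5.95). COL4A4 went from 1692 ± 534 to 289 ± 94.0 and 27.6 ± 8.74 CPM (-2.55 and -5.94). In library numbers 5 to 8 alone KERA, COL4A3 and COL4A4 fell with TGF-β1 by 4.99, 3.08 and 2.54 on the log2 scale. A link between these genes and LMX1B was not tested. PLOD1, a lysyl hydroxylase gene, fell too (-1.46 and -2.74). KIT, the receptor of stem cell factor and a gene that AP-2 factors control in melanocytes, was 2.29 ± 0.849 CPM in serum-free cultures and 1.78 ± 0.366 with TGF-β1 (-0.36, edgeR adjusted p = 0.205). With FBS it fell to 0.0115 ± 0.0214 CPM, near 0, where a fitted fold gives no size. FOXO1, a forkhead factor reported downstream of FOXC1, rose with TGF-β1 from 19.1 ± 2.39 to 31.9 ± 3.32 CPM (0.74) and fell to 7.85 ± 1.57 with FBS (-1.28). GDNF, a growth factor controlled by SIX2 and EYA genes in the kidney, rose with TGF-β1 (1.12) and did not pass with FBS (0.34, edgeR adjusted p = 0.135, with a call in 5 alternatives, among them numbers 5 to 8 alone, the replicate block and scaling by total counts only).

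**Figure D5:**
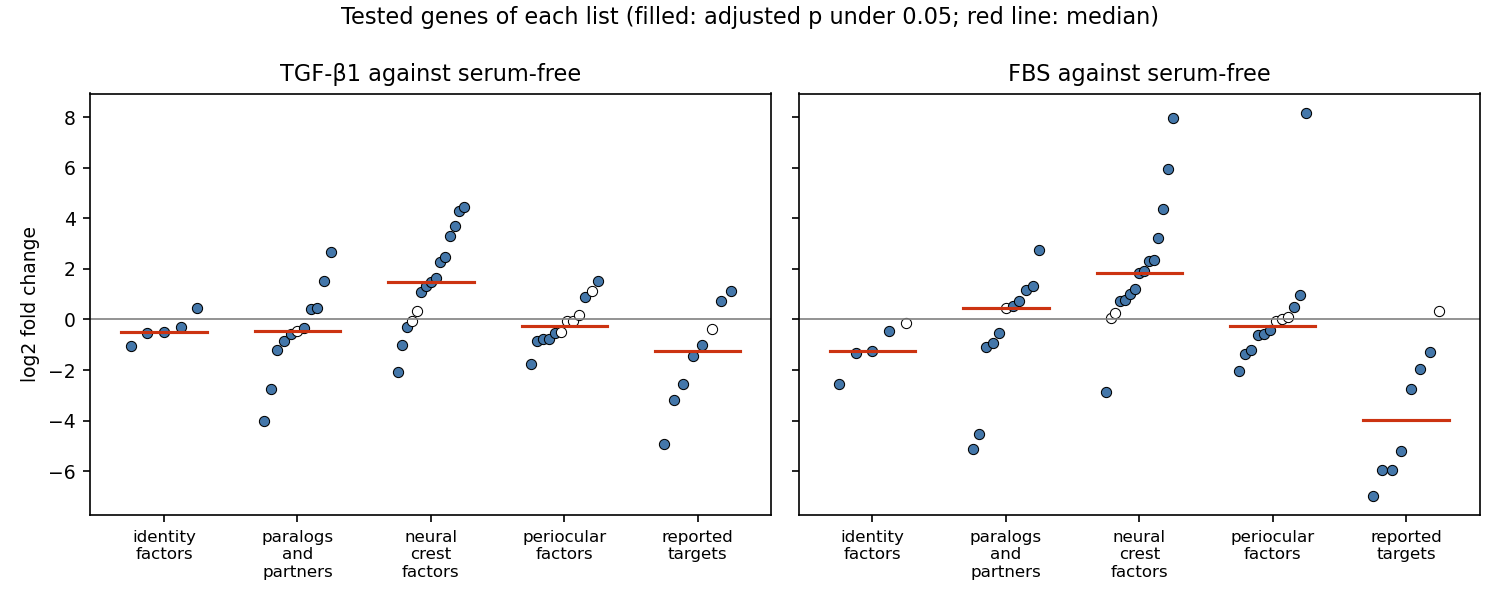
Fitted log2 fold changes (y axis) of the tested identity factors and of the tested genes of each list (x axis), 1 point per gene, filled where the adjusted p was under 0.05, with the median as a red line. The neural crest factors have medians of 1.46 and 1.83 and the identity factors -0.49 and -1.23. The lists were chosen with earlier results known, so these medians are no test. The highest periocular point with FBS is TCF21, whose fitted value rests on 0 counts in serum-free medium and is no measure of size.

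The genes with the most similar profile were sought for each of the 5, by the root mean square difference of log2 CPM, centred on each gene's mean, over the 24 libraries. Smaller values mean closer profiles, and the libraries fall into 3 conditions, so this describes them and tests nothing. For TFAP2B the closest were ACVR2A (0.26), ZFP28 (0.27) and ALDH6A1 (0.28). For EYA2 they were APBB1 (0.15), ANOS1 (0.15) and PRMT2 (0.18). For LMX1B they were ARMCX6 (0.22), OAZ2 (0.23) and INPP1 (0.24). For FOXC1 they were HPS3 (0.11), DERL1 (0.12) and SARAF (0.12), and for TFAP2A MAPK9 (0.15), MARCKS (0.18) and MBIP (0.18). Among the 10 pairs of the 5 factors, EYA2 and LMX1B were closest (0.28) and FOXC1 and TFAP2B farthest apart (1.07).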

How the data were processed

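The authors deposited raw, whole-number counts for each gene and library. In the deposited FPKM values, counts are scaled by the length of each gene and a library total lying within 0.990 to 1.02 times the TMM size used here. The sources used here name no aligner, counter, build or annotation. Both members and gene lists were chosen with earlier results of these data known.

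The analysis used edgeR 4.0.16 (R 4.3.3): filterByExpr by condition (13308 genes kept), TMM, 1 fit over 24 libraries, quasi-likelihood F-tests and Benjamini-Hochberg adjustment over all genes, with calls at an adjusted p under 0.05. Standard errors are the log2 fold change over the square root of F. The fits were tested on simulated data. Alternatives were DESeq2 1.42.0, limma 3.58.1 on log2(FPKM + 0.1) and log2(FPKM + 1), other scaling, filters and samples, sets of library numbers and leaving out each library. Lists were described by counts and medians. The naming rule took, per list and comparison, up to 4 called genes with the largest absolute log2 fold change and up to 2 not called with the highest mean CPM. Genes it took in any comparison have their values against serum-free medium given in both treatments. CITED1, TWIST2, SNAI2, PRRX2, ZEB2, BNC2 and TSHZ1 also met it and are not described, and a few list genes that count in the list totals are not reported here. SOX10 and the single marker genes were named after their values were seen.

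Every same-numbered pair of libraries had a residual correlation above 0.1 (0.177 to 0.362, 0.115 to 0.429 and 0.103 to 0.332 for serum-free with TGF-β1, serum-free with FBS and TGF-β1 with FBS, by the labels' replicate numbers), so the replicate block was fitted too. Pairs with different numbers reached 0.441, 0.414 and 0.335, and a library correlated best with its own number in 6, 7 and 6 of 16 cases. No library duplicated another (lowest chi-square per gene 2.85), but FBS replicates 1 and 2 (2.85), 3 and 4 (3.41) and 7 and 8 (3.07) and TGF-β1 replicates 5 and 6 (3.34) and 7 and 8 (3.80) were the closest.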

Additional observations from a re-analysis of the deposited data

Results flagged for a closer look

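The ratio of TFAP2B to TFAP2A in TGF-β1 replicate 2 was 4.08, far from the other 7 of its group for its range. Of 18 groups checked this way it was the 1 that stood out, and chance alone picks out about 1 group in 20.

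The log2 fold changes of library numbers 9 to 12 and 5 to 8 differed past the threshold in 8 cases (edgeR's set-by-condition term), the values being the change in the former minus that in the latter. With TGF-β1 against serum-free medium these were TFAP2B (-0.44), LMX1B (-1.01) and TFAP2A (-0.46). With FBS they were TFAP2B (1.03) and EYA2 (0.38). Between TGF-β1 and FBS they were TFAP2B (-1.47), EYA2 (-0.77) and TFAP2A (-0.50). What the sets of numbers share is not in the labels and was not tested.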

How the results depend on the processing

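Over 36 alternative settings, 3324 of 3425 recomputed values were taken as unchanged. For a test this means that it kept its direction and its side of the threshold. For a count of genes it means only a value within 1.5 times of the main one. A drop from 4 to 3 factors lower with TGF-β1, when 1 library was left out, thus counts as unchanged. Of the others, 54 lost a call, 21 gained one, 24 changed sign or fell to 0, and 2 counts moved by over 1.5 times. All genes shifted by a median of -0.14 (TGF-β1 against serum-free medium), 0.26 (FBS against serum-free medium) and -0.40 (TGF-β1 against FBS) when scaled by total counts only. Of the called genes the share that was higher then went from 48.5% to 37.5%, from 49.4% to 58.3% and from 50.4% to 31.5% in these comparisons. That scaling turned FOXC1 with FBS (0.13), TFAP2A between the treatments (-0.24) and the set terms of TFAP2A with FBS (-0.0766) and FOXC1 between the treatments (0.0609). The latter, near 0 as reported, also turned with no filter (0.0049), on FPKM (0.0301 with either pseudocount) and with FBS replicates 5 and 6 left out together (0.0824). In library numbers 5 to 8 alone LMX1B with TGF-β1 was 0.0262, and 2 rather than 4 factors were lower with TGF-β1. In numbers 9 to 12 alone TFAP2A between the treatments was -0.13, KIT with TGF-β1 0.0729 and TCF21 with TGF-β1 0, as it also was without TGF-β1 replicate 1, which held its 1 count (up to 1.26 without another library). With FPKM and the pseudocount of 0.1, 2 factors rather than 1 were higher with TGF-β1, SIX2 being the other. Leaving out 1 library turned the set terms of FOXC1 between the treatments (-0.0550 to 0.0847) and TFAP2A with FBS (-0.0218 to 0.0732). The cause was not tested. The replicate block changed no call of the 5 factors, and TFAP2A with TGF-β1 had an adjusted p of 0.00694 under it (edgeR). Counts limit SIX2, whose 6 to 18 counts per condition were too few for the filter.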
